A study of Mus musculus with 2 samples.

Results

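Krt79 upper follicle keratinocytes are the cells that line the upper canal of the hair follicle, and they were described here in imiquimod-treated mouse back skin from 1 wild-type (WT) library and 1 Chrna5 knockout (KO) library of single cells. A cell was counted as a member when at least 0.1% of its unique molecular identifiers (UMIs, each standing for 1 captured RNA molecule) came from Krt79, when it held under 3 UMIs of Cldn3 and under 3 of Mki67 and Top2a together, and when it was not a sebocyte by the following measure. A cell was set aside as a sebocyte when Scd1 made up at least 0.05% of its UMIs and Awat2, Mc5r, Far2 and Elovl3 together gave at least 2 UMIs. Of the cells holding 1000 UMIs and 200 genes or more, with no more than 10% of UMIs mitochondrial, 1589 of 11626 (13.7%, exact 95% binomial interval 13.0 to 14.3) were members in the WT library and 1084 of 9605 (11.3%, 10.7 to 11.9) in the KO library, 2673 of 21231 in all. Because Krt79 chose the cells, its level in them is a description and supports nothing.

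The upper follicle, above the opening of the sebaceous gland, is a stratified epithelium that opens onto the skin surface. Its differentiated cells make Krt79, a keratin that marks the follicle canal, together with Krt17, a follicle and wound keratin, and its basal layer carries Plet1 and Lrig1. Ly6d is a surface protein of committed, differentiated keratinocytes. Imiquimod, a Toll-like receptor agonist, gives mouse skin a psoriasis-like inflammation driven largely by interleukin-23 and interleukin-17, to which keratinocytes respond with antimicrobial proteins, wound keratins and chemokines. Chrna5 is the gene of an accessory alpha subunit that joins other subunits in nicotinic acetylcholine receptors.

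Both groups were female mice aged 6 to 8 weeks, whose substrain the protocols give as C57BL/6N in one place and C57BL/6J in another. The KO animals carried a Chrna5 knockout, given with no tissue-specific driver, and their line had been backcrossed for over 10 generations; the sources used here do not give which part of it was removed. Shaved backs of WT and KO mice alike received 62.5 mg of 5% imiquimod cream on 6 days in a row, and skin was taken on day 7; skin treated with the cream base alone was not analysed here. The labels give 5 mice per group without saying whether a library pools them. Skin was digested with collagenase, and live cells were sorted as negative for the dye Sytox Blue before droplet capture. With 1 library per genotype there is no replicate, so no difference between genotypes was tested. Values are UMIs per 1000000 (CPM), summed over all members of a library, and intervals are exact 95% Poisson or binomial intervals that cover counting error only. A gene is called higher or lower when the 2 libraries differ at least 2-fold.

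The members contributed 21287024 UMIs in the WT library and 21939712 in the KO library. Their depth was uneven: the median member held 2982 UMIs in the WT library and 18637.5 in the KO library. Both libraries had a shallow and a deep class, on either side of 8000 UMIs. The 620 deep WT members held 89.4% of the WT members' UMIs, and the 736 deep KO members held 96.5% of theirs, so the summed values are mainly those of the deep cells. The share of members turned with depth. Among all quality-filtered cells, deep members made up 5.33% of the WT library (4.93 to 5.76) and 7.66% of the KO library (7.14 to 8.21), whereas shallow members made up 8.33% and 3.62%. No order of the genotypes can therefore be read from the share of upper follicle cells. The libraries shared 49 cell barcodes, none of them among the members.

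**Figure D1:**
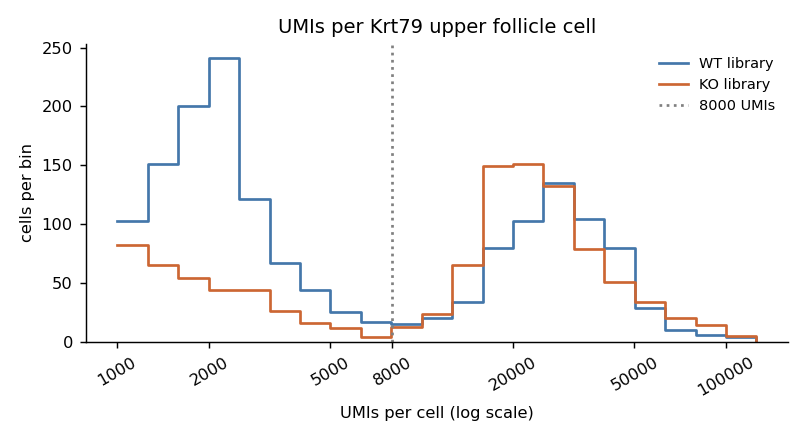
Number of Krt79 upper follicle keratinocytes (vertical axis) by UMIs per cell (log axis) in the WT and KO libraries, with a line at 8000 UMIs. Both libraries show a shallow and a deep peak; the shallow peak holds 969 WT and 348 KO cells, the deep one 620 and 736.

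Fibroblast and macrophage markers were higher in shallow members. The summed fibroblast markers stood at 1537 CPM (WT) and 2095 CPM (KO) in the shallow members and at 199.9 and 95.8 CPM in the deep members, against 17126 and 16806 CPM in fibroblasts of the same libraries. All 6 fibroblast markers had UMIs in the members, and at least 3 such UMIs lay in 39.9% of WT and 21.96% of KO members. The 7 macrophage markers gave 751 and 461 CPM in the shallow members and 52.7 and 38.2 CPM in the deep ones, against 13747 and 11827 CPM in macrophages. Neutrophil markers summed to 2.30 (WT) and 0.912 CPM (KO) in the members, and Ly6g, a defining neutrophil gene, was at 0 in both. The 6 Langerhans cell markers gave 1385 (WT) and 1131 CPM (KO) in the members and were higher in the deep cells (1418 and 1145 CPM) than in the shallow ones (1105 and 737 CPM). Most of this was Epcam, an adhesion protein that basal keratinocytes also had, at 1270.5 and 1066 CPM in the members, while Cd207, the defining Langerhans gene, was at 9.11 and 9.94 CPM. Schwann cell markers had 43.9 (WT) and 31.7 CPM (KO) in deep members and 45.97 and 30.1 CPM in shallow ones. Over all members, erythroid markers had 118 and 5.74 CPM, mast cell markers 19.6 and 2.83 CPM, and those of T cells, endothelium, melanocytes and pericytes between 1.19 and 31.6 CPM. These lists too were higher in shallow than in deep members, except the erythroid one in the WT library (107 and 119 CPM). Pericyte markers had 318 CPM in shallow and 21.3 CPM in deep KO members. Mast cell markers had 171 and 1.58 CPM in those of the WT library. The part of other cells' RNA in the results was not tested. A gene is marked below as possible free RNA by its level in the library where the members had more of it. The mark is given when that level was under 20% of the level in another cell group. Those groups were sebocytes, inner follicle cells (at least 3 UMIs of Cldn3), fibroblasts, endothelium, pericytes, melanocytes, Schwann cells, macrophages, mast cells and T cells. A group needed 30 cells in the library. Basal, suprabasal and outer follicle keratinocytes were not among them, so the mark does not weigh RNA from those cells.

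Of the other 3 markers of the label, which the gate did not use, Krt17 had a UMI in 87.2% of WT and 85.6% of KO members after each cell was thinned to 1000 UMIs, beside 14.4% and 9.99% of fibroblasts. Ly6d was seen in 85.9% and 85.8% of members beside 8.86% and 5.48% of fibroblasts, and Plet1 in 73.4% and 50.5% beside 6.45% and 3.05%. Without thinning the shares in members were 96.3% and 93.7% (Krt17), 94.97% and 93.5% (Ly6d) and 91.2% and 83.8% (Plet1). Median depths were 2982 (WT) and 18637.5 UMIs (KO) in members and 7442.5 and 6861 UMIs in fibroblasts.

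The cells beside the Krt79 threshold carried other upper follicle genes on both of its sides. WT cells just inside it (0.1 to 0.15% Krt79, 379 cells) had Cst6 at 4150.5 CPM and cells just outside (0.05 to 0.1%, 951 cells) at 3005 CPM, and the KO cells had 9321 CPM (138 cells) and 3336 CPM (453 cells). Krt17 was 3126 CPM inside and 3346 CPM outside in the WT cells, but 2666 and 1999 CPM in the KO cells. Plet1 was 1714 CPM inside and 1405 CPM outside in the WT cells, but 1094 and 1237 CPM in the KO cells. Ly6d was higher inside in both libraries, at 3528 and 2894 CPM (WT) and 3315 and 2228 CPM (KO).

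Chrna5 itself was close to undetected. It gave 3 UMIs in the WT members (0.141 CPM, 0.0291 to 0.412) and 0 in the KO members, where a count of 0 allows up to 0.137 CPM at 3 counts, so these cells do not check the genotype labels. A list of 20 genes held the nicotinic receptor subunits together with Chat, Slc18a3, Ache and Bche, which are not subunits. Of these 20 genes, 11 had any UMI in the members and 1 reached 20 UMIs. That gene was Chrnb1, the beta subunit of the muscle receptor, at 0.846 (WT) and 0.866 CPM (KO) in the members.

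The members were set against basal cells (541 WT, 72 KO), suprabasal cells (163 WT, 79 KO) and outer follicle cells (1249 WT, 390 KO) of the same libraries. Suprabasal cells had Krt1 plus Krt10 at 0.5% of UMIs or more. Basal and outer follicle cells alike had Krt5 plus Krt14 at 0.5% or more and Krt1 plus Krt10 under 0.1%. They differed only in Lhx2 plus Sox9, under 2 UMIs in basal cells and at least 2 in outer follicle cells. Shallow follicle cells can therefore fall in the basal group. These cells were chosen on low Krt79 and on other keratin or follicle genes, so the ratios describe groups and test nothing. Their median depths in the WT and KO libraries were 2304 and 5909 UMIs (basal), 34386 and 34718 (suprabasal) and 9377 and 11621.5 (outer follicle). Krt79 (chromosome 15, 101929332 to 101940324, minus strand, mm10) stood at 5174 (WT) and 6471 CPM (KO) in the members. It was at 112.7 to 170.7 CPM in the 3 WT groups and at 87.2 to 121 CPM in the KO groups. Fibroblasts had 83.3 and 72.5 CPM. These groups were chosen for low Krt79. The small sebocyte groups were higher, at 704 and 672 CPM.

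Cst6 (chromosome 19, 5344705 to 5349574, minus strand), which encodes cystatin M/E, an inhibitor of the lysosomal and cornified-layer proteases, was abundant in the members and low in the other keratinocytes. It reached 23248 (WT) and 38437 CPM (KO) in the members. In WT basal, suprabasal and outer follicle cells it was at 406, 2165 and 693 CPM, so the members were 57.3, 10.7 and 33.5 times higher. In the KO library the ratios were 184, 28.0 and 53.2. Inner follicle cells were named here only by at least 3 UMIs of Cldn3 with Krt79 under 0.1% (77 WT, 202 KO cells). No gene of the hair shaft or its sheath was required. They had an intermediate level of Cst6, 4759 CPM (WT) and 6118 CPM (KO).

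Of 9440 genes measured against all 3 groups, 59 (0.625%) were at least 2-fold higher in the members than in each group of both libraries. Several encode proteins of desquamation. Klk6, a trypsin-like kallikrein protease (chromosome 7, 43824499 to 43832030, plus strand), had 618 (WT) and 369.8 CPM (KO) in the members, and its lowest ratio over the 3 groups was 10.7; inner follicle cells had 217 and 61.2 CPM. Klk7, the chymotrypsin-like kallikrein that cleaves corneodesmosomes, had 1514 and 1402 CPM and a lowest ratio of 5.58. Cdsn, corneodesmosin, had 80.7 and 70.3 CPM and a lowest ratio of 9.51, but inner follicle cells had more, at 105.9 and 146.9 CPM. Of 16 kallikrein and Serpinb genes measured, 10 were higher than in basal cells in both libraries and none was lower, against 6.01% of all 9474 genes that were higher and 4.16% that were lower. Against suprabasal cells 3 were higher and 3 lower (background 4.39% and 1.23%).

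Other genes among the 59 have other roles. Defb6, a beta-defensin (chromosome 8, 19225478 to 19228209, plus strand), stood at 14451 (WT) and 16498 CPM (KO) in the members. Its ratios over basal cells were 23.7 and 60.1, and over suprabasal cells 2.18 and 3.62. Gsdma, a pore-forming gasdermin of skin, had 61.5 and 86.6 CPM with a lowest ratio of 3.11. Krt23, an acidic keratin, had 56.0 and 50.3 CPM with a lowest ratio of 3.08, Psapl1, a prosaposin-like protein, 116 and 172 CPM with 2.66, Chil1, a chitinase-like secreted protein, 806 and 507 CPM with 2.44, and Atp6v1c2, a subunit of the proton pump, 78.7 and 102 CPM with 2.63. Of 17 antimicrobial proteins and protease inhibitors measured, 7 were higher than in basal cells (background 6.01%), and 3 were higher and 8 lower than in suprabasal cells (background 4.39% and 1.23%). Psapl1 was no higher in the members than in sebocytes, which had 165 and 353 CPM.

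The keratin that marks the follicle was higher by less. Krt17 (chromosome 11, 100256217 to 100261029, minus strand) had 7829 (WT) and 9314 CPM (KO) in the members and a lowest ratio of 2.45, but inner follicle cells had 7197 and 4826 CPM. Plet1, an upper follicle surface protein (chromosome 9, 50494525 to 50505482, plus strand), was 1991 and 1298 CPM, only 1.68 and 1.32 times its level in basal cells. Ly6d was 4689 and 4768 CPM and lower than in suprabasal cells, with ratios of 0.789 and 0.650. Gata6, a transcription factor of the sebaceous duct and upper follicle, was low but raised over every group, at 27.2 and 47.6 CPM with a lowest ratio of 2.61. Of 17 upper follicle genes listed and measured, 11 were higher than in basal cells, 8 higher than in suprabasal cells and 12 higher than in outer follicle cells, in both libraries; the background was 6.01%, 4.39% and 6.6%. The list holds Krt79, which chose the cells.

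Basal-layer transcripts were mostly lower in the members than in basal cells, but not all were low in level. Krt14 was abundant in the members, at 4869 (WT) and 2773 CPM (KO). Krt5, the basal keratin, had 353 (WT) and 157 CPM (KO) in the members, against 2861 and 2755 CPM in basal cells. Of 17 basal and basement membrane genes measured, 14 were lower than in basal cells and 15 lower than in outer follicle cells (background 4.16% and 6.04%). The list holds Krt5 and Krt14, which chose both of those groups. Krt1 and Krt10, the suprabasal pair, were present at 768 and 783 CPM (Krt1) and 1001 and 943.5 CPM (Krt10). These levels were above basal cells but under suprabasal cells, where Krt1 was 7115 and 9073 CPM and Krt10 was 4914.5 and 9887 CPM. Krt1 and Krt10 chose the groups, low in basal and high in suprabasal cells. The orders of Krt5, Krt1 and Krt10 between groups are therefore a description and support nothing. Sterol and fatty acid synthesis genes were also high: 14 of 29 were higher than in basal cells and 17 of 29 higher than in outer follicle cells (background 6.01% and 6.6%). Against suprabasal cells none was higher and 2 were lower (background 4.39% and 1.23%).

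**Figure D2:**
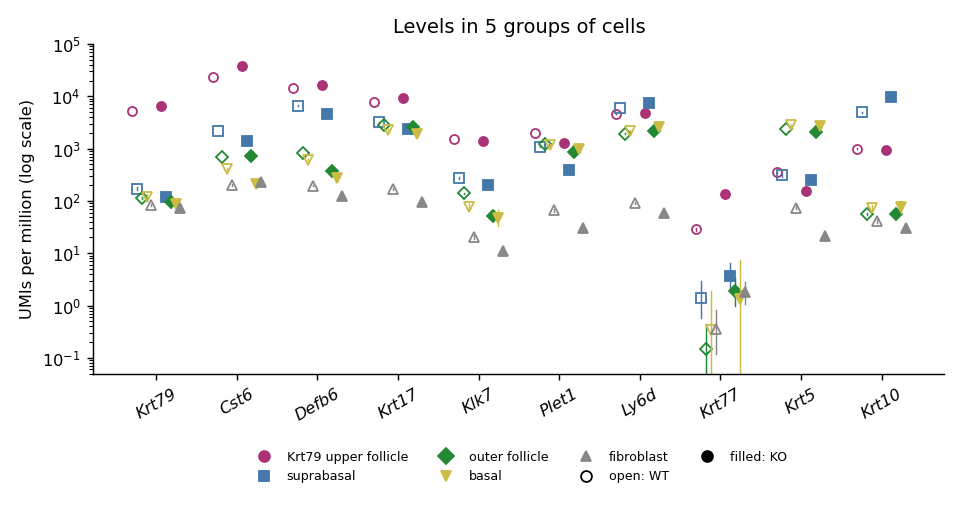
Levels in CPM (log axis) of 10 genes in the upper follicle members and in suprabasal, outer follicle, basal and fibroblast cells; open symbols are the WT library, filled symbols the KO library, and bars are 95% Poisson intervals. Krt79 and Cst6 stand at least 10.7 times higher in the members than in the 3 other keratinocyte groups, whereas Plet1 and Ly6d lie close to them. Krt5 is lower than in basal cells, which were chosen on Krt5 and Krt14. Krt79 and Krt10 were also used to choose groups.

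Between genotypes, 386 of 11087 genes (3.48%) were at least 2-fold higher in the KO members and 600 (5.41%) at least 2-fold lower. In deep members alone the split was 438 (4.11%) higher and 413 (3.88%) lower of 10651. Without genes marked as possible free RNA it was 286 higher and 236 lower of 8741. Among unmarked genes with at least 20 UMIs, the limit used for lists, 389 were higher and 328 lower of 9382. Leaving out genes under the 20% limit in either library left 216 higher and 129 lower of 7845. The upper follicle genes themselves were near the background: of 19 measured, 1 was higher and 2 were lower in the KO library (background 4.54% and 6.96% of 12762 genes with at least 20 UMIs), and their median log2 ratio was 0.25 against -0.04 for all genes. Cst6 was 1.65 times, Krt17 1.19 times and Defb6 1.14 times as high in the KO members, and Plet1 0.652 times. The gene called higher was Sostdc1, a secreted BMP and Wnt antagonist, at 5.31 (WT) and 20.1 CPM (KO). The genes called lower were Gjb2 and Gjb6, which encode the connexins of keratinocyte gap junctions; Gjb2 had 199.8 (WT) and 35.2 CPM (KO) in the members.

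The calprotectin genes were lower in the KO members. S100a8 (chromosome 3, 90668978 to 90670035, plus strand) had 6188 (WT) and 264 CPM (KO) in the members, 23.4-fold lower (95% interval 22.8 to 24.1). S100a9 (chromosome 3, 90692632 to 90695721, minus strand) had 6177 and 286 CPM, 21.6-fold lower (21.1 to 22.1). Their proteins form a calcium-binding heterodimer released by inflamed epidermis and by neutrophils. With each cell thinned to 1000 UMIs, which left out no member, S100a8 was seen in 81.1% of WT and 13.5% of KO members; the shares in fibroblasts were 25.7% and 0.763%. The median depths before thinning were 2982 and 18637.5 UMIs in members and 7442.5 and 6861 in fibroblasts, and without thinning the shares in members were 97.1% and 37.9%. The other keratinocyte groups had the same direction: the KO over WT ratio of S100a8 was 0.120 in basal, 0.0551 in suprabasal and 0.0842 in outer follicle cells, beside 0.0427 in the members and 0.0764 in members under 8000 UMIs.

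Among genes with at least 50 CPM in the higher library, Dapl1 came first by the lower bound of its ratio, although the ratio of Lor was larger. Dapl1 encodes a small protein of differentiating epithelia (chromosome 2, 59484653 to 59505020, plus strand). Dapl1 had 62.3 (WT) and 531 CPM (KO) in the members, 8.52-fold higher (8.04 to 9.02), and 8.05-fold in deep members. Thinned to 1000 UMIs, 3.21% of WT and 23.4% of KO members had a Dapl1 UMI, against 0.0561% and 0.625% of fibroblasts. The ratio was also above 1 in basal (18.2), suprabasal (8.58) and outer follicle cells (8.68), so the direction was shared by all 4 keratinocyte groups. Others that ranked high by the same rule were C2cd4b, at 9.68 and 65.4 CPM, Cdkn2d, an inhibitor of cyclin-dependent kinases, at 12.9 and 61.9 CPM, and Pkib, an inhibitor of protein kinase A, at 22.7 and 96.5 CPM.

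The sequences just upstream of 4 of these genes are shown because they cover the marker that defines the cells, the defensin that is high in them, a calprotectin gene that is lower in the KO members, and Dapl1, which is higher in them. Each is the 250 bases before the RefSeq start on GRCm38.p6, read 5′ to 3′ on the gene's strand. Krt79 is at chr15:101940325-101940574 (minus), Defb6 at chr8:19225228-19225477 (plus), Dapl1 at chr2:59484403-59484652 (plus) and S100a9 at chr3:90695722-90695971 (minus). Capitals mark matches of AGATAA, a core bound by GATA factors, of TGANTCA, bound by AP-1, or of TATAAA, a core promoter element, searched on both strands; the 3 share no match.
Krt79: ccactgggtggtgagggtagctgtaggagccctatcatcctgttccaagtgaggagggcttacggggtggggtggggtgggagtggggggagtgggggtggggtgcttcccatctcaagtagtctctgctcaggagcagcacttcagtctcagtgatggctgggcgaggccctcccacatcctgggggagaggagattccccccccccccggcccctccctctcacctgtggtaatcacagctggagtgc
Defb6: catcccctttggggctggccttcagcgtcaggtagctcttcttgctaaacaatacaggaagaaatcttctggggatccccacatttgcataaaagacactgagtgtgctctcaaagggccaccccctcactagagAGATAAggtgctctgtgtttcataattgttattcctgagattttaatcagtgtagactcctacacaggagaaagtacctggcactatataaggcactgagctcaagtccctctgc
Dapl1: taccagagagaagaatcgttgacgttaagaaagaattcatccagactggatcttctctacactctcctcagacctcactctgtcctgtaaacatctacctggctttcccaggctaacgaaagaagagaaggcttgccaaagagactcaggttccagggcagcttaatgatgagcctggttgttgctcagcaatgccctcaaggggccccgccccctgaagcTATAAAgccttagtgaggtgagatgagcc
S100a9: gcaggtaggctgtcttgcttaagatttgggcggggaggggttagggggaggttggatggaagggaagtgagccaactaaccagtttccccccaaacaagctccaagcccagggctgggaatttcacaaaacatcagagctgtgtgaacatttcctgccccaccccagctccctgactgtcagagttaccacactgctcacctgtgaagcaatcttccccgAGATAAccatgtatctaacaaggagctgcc
AGATAA was found in Defb6 at 115 to 110 bases and in S100a9 at 30 to 25 bases before the start, and TATAAA in Dapl1 at 29 to 24 bases before it. Of 32851 promoters of the same length, 9.99% hold AGATAA, 6.75% TGANTCA and 12.4% TATAAA, so these matches are a description of the letters and no evidence of binding.

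Small proline-rich (Sprr) and late cornified envelope 3 (Lce3) genes, which encode cross-linked envelope proteins of stressed epidermis, were lower together in the KO members. Of 16 measured, 14 were lower and 1 was higher, against 6.96% and 4.54% of all genes, with a median log2 ratio of -2.52 against -0.04 for all genes. Sprr2d had 471 (WT) and 38.2 CPM (KO) in the members, 12.3-fold lower (11.5 to 13.2). Sprr2e, a near copy, was 7.13-fold lower, and Lce3c, at 90.1 and 8.34 CPM, 10.8-fold lower. Lce3f had 38.6 and 0.729 CPM. Sprr1a did not follow, at 2297 (WT) and 2858 CPM (KO), and Sprr1b was at 967 and 447 CPM. How reads shared by near copies of Sprr2, Lce1, Lce3, Krt6, Hspa1 or the stefins were counted was not stated, so single members of these families are uncertain.

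Late envelope genes of unstressed epidermis had the other direction. Lor, loricrin, the main protein of the mature envelope (chromosome 3, 92080271 to 92083142, minus strand), had 12.9 (WT) and 114 CPM (KO) in the members, 8.80-fold higher (7.76 to 10.0). In the members under 8000 UMIs its ratio was 0.942, without members carrying other lineages' markers 4.84, and with the keratin ranges weighted equally it was 5.53. Lce1a1 had 0.376 (WT) and 20.01 CPM (KO), and Lce1b 0.611 and 17.1 CPM. Of 22 granular layer and envelope genes measured, 7 were higher and 1 was lower in the KO members (background 4.54% and 6.96%): Lor, Flg2, Hrnr and 4 Lce1 genes were higher, and Cnfn, cornifelin, was lower at 613 and 244 CPM. Flg, Ivl and Tgm1, which encode filaggrin, involucrin and the envelope transglutaminase, had ratios of 1.24, 1.03 and 0.942. Krt77, a keratin of sweat ducts and some suprabasal cells (chromosome 15, 101858731 to 101869705, minus strand), had 28.6 (WT) and 136 CPM (KO) in the members, 4.74-fold higher (4.34 to 5.18), and was at 1.41 and 3.71 CPM in suprabasal cells.

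The Krt6 pair of wound keratins was lower in the KO members, and Krt16 and Krt17 did not pass 2-fold. Krt6b (chromosome 15, 101676023 to 101680287, minus strand) had 230.2 (WT) and 7.98 CPM (KO) in the members, 28.9-fold lower (24.8 to 33.8). Its near copy Krt6a had 2098 and 633 CPM, 3.32-fold lower, and Krt16, their partner keratin, 3177 and 2698 CPM. Of 14 wound keratins and partners measured, 6 were lower and none was higher in the KO members (background 6.96% and 4.54%). Of the 9 not marked as possible free RNA, 3 were lower (background 328 of 9382 unmarked genes). Besides the keratins, those lower were Stfa1, a cysteine protease inhibitor, and 3 genes marked as possible free RNA, Tnc, a matrix glycoprotein of wounds, Mmp10, a matrix protease, and Itga5, a fibronectin receptor subunit.

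Genes that interleukin-17 and TNF induce in keratinocytes were also lower. Of 24 measured, 15 were lower and none was higher (background 6.96% and 4.54%). Among the 14 not marked as possible free RNA, 8 were lower (background 328 of 9382 unmarked genes). Il1f6, which encodes interleukin-36 alpha (chromosome 2, 24215418 to 24225702, plus strand), had 84.0 (WT) and 9.02 CPM (KO) in the members, 9.31-fold lower (8.03 to 10.8), and Il1f9, interleukin-36 gamma, 100.4 and 32.1 CPM. The beta-defensin Defb3 had 22.5 and 5.06 CPM, and Defb14 46.7 and 17.3 CPM. Saa3, Lcn2 and Cxcl2 were lower too but are marked as possible free RNA. Ccl20, the chemokine that draws interleukin-17-producing T cells, did not follow, at 1917 (WT) and 2089.9 CPM (KO) in the members. Nfkbiz, a nuclear co-regulator of interleukin-17 targets, had 204 and 337 CPM.

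The upper follicle cells also transcribed cytokines. Il23a, the interleukin-23 subunit (chromosome 10, 128296139 to 128298752, minus strand), had 61.4 (WT) and 8.34 CPM (KO) in the members, 7.36-fold lower (6.30 to 8.63). The ratio was 0.298 after thinning to 1000 UMIs, when 2.89% of WT and 1.01% of KO members had a UMI of Il23a. Il1a had 114 and 40.4 CPM, Tnf 88.8 and 37.8 CPM and Il33 34.3 and 9.80 CPM. Il10, a cytokine that restrains inflammation, was low but higher in the KO members, at 1.503 and 8.48 CPM, and Il34, a ligand of the macrophage growth factor receptor, had 7.23 and 22.1 CPM. Of 18 cytokines and antagonists measured, 7 were lower and 3 higher (background 6.96% and 4.54%). Of the 11 not marked as possible free RNA, 5 were lower and 2 higher (background 328 and 389 of 9382 unmarked genes). Of the 7 above the limit in both libraries 3 were lower and none was higher. The background for these was 129 lower and 216 higher of 7845 genes with at least 50 UMIs.

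The list of antimicrobial proteins and protease inhibitors shares S100a8, S100a9 and Lcn2 with that of interleukin-17 and TNF. Of 22 measured, 10 were lower and 2 higher (background 6.96% and 4.54%). Of the 15 not marked as possible free RNA, 5 were lower and 2 higher (background 328 and 389 of 9382 unmarked genes). Slpi, the secretory leukocyte protease inhibitor, had 837 (WT) and 133.5 CPM (KO) in the members, 6.27-fold lower (6.03 to 6.53). The stefin-like gene BC100530 had 2923 and 789 CPM. Fabp5, the epidermal fatty acid-binding protein, had 5272 and 1623 CPM, 3.25-fold lower, and Akr1c18, an aldo-keto reductase, 68.3 and 3.60 CPM. Gsta4, a glutathione transferase, had 20.6 and 2.51 CPM, whereas Gstm1, of another class of the enzyme, had 33.2 and 101.9 CPM.

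**Figure D3:**
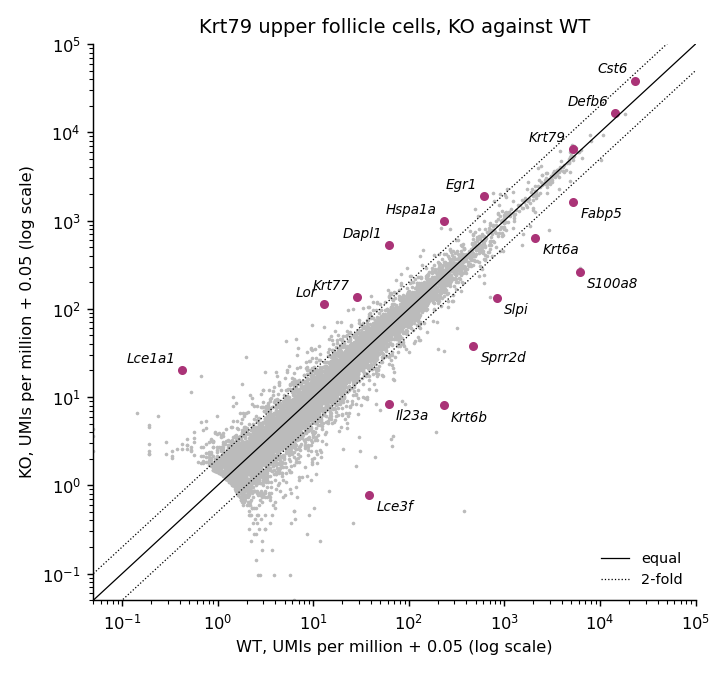
Level of each gene in the KO members (vertical axis) against the WT members (horizontal axis), both in CPM on log axes, with dotted lines at 2-fold. S100a8, Krt6b, Slpi and Sprr2d lie under the lower line, Dapl1, Lor, Krt77 and Egr1 above the upper line, and Krt79, Cst6 and Defb6 between them.

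Immediate early genes were higher in the KO members. Of 22 measured, 9 were higher and none was lower (background 4.54% and 6.96%), and their median log2 ratio was 0.91. Egr1, a growth-factor-induced zinc finger protein, had 611 (WT) and 1908 CPM (KO) in the members, 3.12-fold higher, and Fos, a subunit of AP-1, 756 and 2063 CPM. Zfp36l1, an RNA-binding protein that shortens the life of mRNAs, had 218 and 826 CPM, and Myc 59.8 and 162 CPM. The same direction was seen outside the upper follicle, with Egr1 ratios of 3.83 in basal, 3.19 in suprabasal and 3.92 in outer follicle cells. Fibroblasts held more Egr1 than the members, at 1142 CPM (WT) and 2693 CPM (KO), and after thinning to 1000 UMIs 37.5% of WT and 61.7% of KO members had an Egr1 UMI beside 36.9% and 50.9% of fibroblasts.

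Heat shock genes gave a similar picture. Hspa1a, an inducible chaperone, had 234 (WT) and 993 CPM (KO) in the members, 4.25-fold higher (4.12 to 4.38), and its near copy Hspa1b had 489 and 1365 CPM. Of 16 heat shock genes measured, 4 were higher and none was lower (background 4.54% and 6.96%). Hspa1a was under the free RNA limit in the WT library. Of the 11 genes above that limit in both libraries 1 was higher (background 216 of 7845 genes with at least 50 UMIs). Each genotype was digested and captured as 1 library, so the handling of a library and its genotype cannot be told apart, for these genes and for all others.

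Regulators of differentiation were higher in part. Of 27 BMP, Wnt and Notch genes measured, 8 were higher and 1 was lower in the KO members (background 4.54% and 6.96%), with a median log2 ratio of 0.64. Without possible free RNA 5 of 17 were higher and none was lower (background 389 and 328 of 9382 unmarked genes). Id1 and Id4, targets of BMP signalling that block basic helix-loop-helix factors, had 96.0 and 290.4 CPM (Id1) and 17.5 and 69.96 CPM (Id4). Of 17 genes of STAT3 and JAK-STAT feedback, 3 were higher and none lower (background 4.54% and 6.96%). Those 3 were Socs3, Cish and Il22ra2. Socs3, the inhibitor of interleukin-6 family signalling, was at 81.7 (WT) and 246 CPM (KO). Cish, an inhibitor of cytokine signalling, was at 82.2 and 186 CPM. Il22ra2, a soluble receptor that binds and blocks interleukin-22, was at 1.74 and 14.0 CPM. Among 28 epidermal transcription factors, 3 were higher and 1 was lower (background 4.54% and 6.96%). The lower one was Hopx, a homeodomain protein of the follicle and of differentiated cells, at 543 and 233 CPM. Gata6 differed by 1.75-fold and Sox9, a follicle stem cell factor, by 1.51-fold, both under the 2-fold level.

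Tight junction and sterol genes were near the background (4.54% of all genes higher and 6.96% lower): none of 13 and 1 of 29 passed 2-fold. Of 18 glycolysis and hypoxia genes, 2 were lower and none was higher (background 6.96% and 4.54%). The lower ones were Pgk1 at 178 and 73.0 CPM and Pkm at 288 and 141 CPM. Gapdh, another glycolytic enzyme, was just short of 2-fold lower at 902 and 456 CPM. The median log2 ratio of the list was -0.61, against -0.04 for all genes. Among interferon-stimulated and antigen presentation genes, Irf1 had 132 (WT) and 394 CPM (KO) in the members; 19 of the 27 measured were marked as possible free RNA. Of 21 G2 and M phase genes, 10 were lower and none was higher (background 6.96% and 4.54%), with a median log2 ratio of -0.83. But for the 9 not marked as possible free RNA, 3 were lower and none was higher while the median was 0.38 (background 328 lower and 389 higher of 9382 unmarked genes). Cells with at least 3 UMIs of Mki67 and Top2a had been set aside by the gate.

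**Figure D4:**
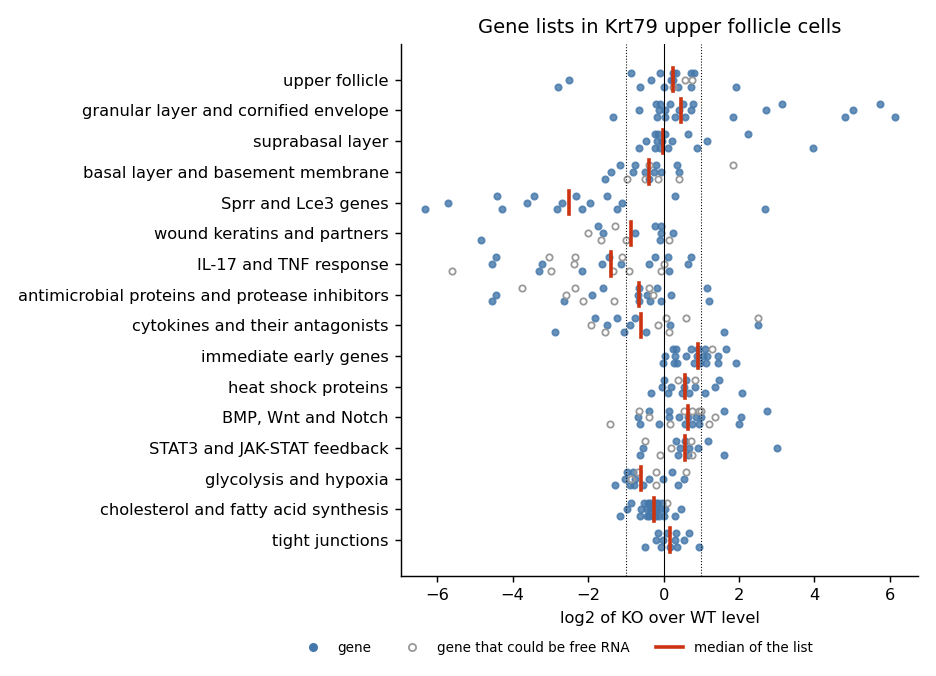
Log2 ratio of KO over WT for the genes of 16 lists (horizontal axis; each point is 1 gene, open grey points are possible free RNA, the red line is the list's median, dotted lines mark 2-fold). Sprr and Lce3 genes lie mostly to the left with a median of -2.52, immediate early genes to the right with a median of 0.91.

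The members were not uniform. They were divided by the fraction of their Krt1, Krt10, Krt5 and Krt14 UMIs that came from Krt1 and Krt10. In the WT library 678 members had a fraction under 0.1, 706 between 0.1 and 0.5, and 200 at 0.5 or more. A further 5 WT and 33 KO members had no UMI of these keratins. The KO library had 458, 316 and 277, so its members lay more often in the highest range (25.6% against 12.6%), in libraries whose members also differed in depth. Over the 3 ranges Cdsn had 39.1, 99.5 and 172 CPM in WT and 31.9, 102 and 98.6 CPM in KO members. Lor had 2.12, 9.17 and 57.8 CPM in WT and 33.9, 44.6 and 303 CPM in KO members. Dapl1 had 20.2, 62.5 and 201 CPM in WT and 180.5, 515 and 1070.2 CPM in KO members. These 3 genes were lowest in the range under 0.1 in both libraries. For Lor and Dapl1 every KO range lay above the WT range of the same keratin fraction.

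Plet1 had the other order in the KO library, with 1834 CPM in the lowest range, 1121 in the middle and 668 in the highest, while the WT ranges had 2138, 1840.2 and 1877 CPM. Cst6 was high in every range, at 14990.2, 30323 and 33143 CPM in WT and 36236, 39593 and 40294 CPM in KO members. S100a8 was lower in every KO range, with 5017, 7119 and 7743 CPM in WT and 167, 382 and 303 CPM in KO members. Il1f6 had 29.0, 88.1 and 256 CPM in WT against 2.94, 6.11 and 21.3 CPM in KO members, and Egr1 241, 854 and 1233 CPM against 1318, 1998 and 2704 CPM. The ranges of the 2 libraries did not overlap for S100a8, Il1f6 or Egr1. These genes, like Lor and Dapl1, had already passed 2-fold over all members. The share of all genes with such ranges was not counted. Of the 3 ranges, the one with most Krt1 and Krt10 had the highest Ereg, a ligand of the EGF receptor, at 736 (WT) and 447 CPM (KO). The 33 KO members with no UMI of Krt1, Krt10, Krt5 or Krt14 had more Ereg, at 1242 CPM, and the 5 such WT members had 0.

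**Figure D5:**
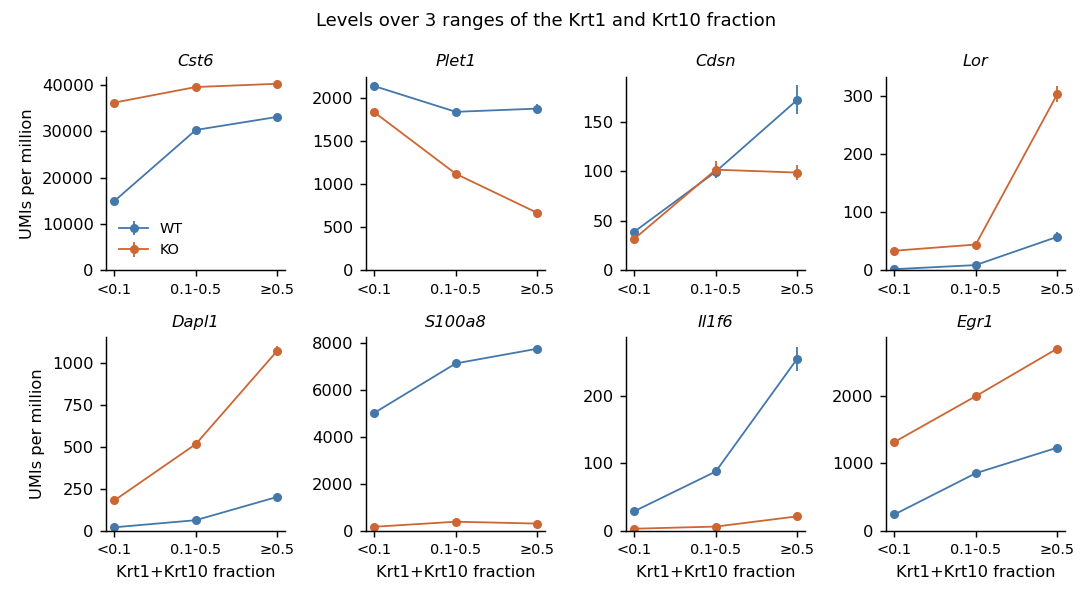
Level in CPM (linear axes, 95% Poisson intervals) of 8 genes in members with a Krt1 and Krt10 fraction under 0.1, from 0.1 to 0.5 and of 0.5 or more, in the WT and KO libraries. Lor, Dapl1 and Il1f6 are highest in the last range of both libraries, and S100a8 is lower in all 3 KO ranges than in any WT range.

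Genes also followed the Krt79 share, which the gate used only as a lower limit. From members with 0.1 to 0.3% Krt79 (963 WT, 435 KO cells) to those with 1% or more (78 WT, 135 KO cells), Cst6 went from 5023 to 57099.6 CPM in the WT and from 10549 to 71373 CPM in the KO library, and Krt77 from 4.84 to 91.7 CPM and from 25.5 to 295 CPM. Krt5 went the other way, from 717 to 36.1 CPM and from 406 to 10.6 CPM. Deep members alone gave the same orders, with Cst6 from 5279.6 to 57074 CPM in WT and from 11359.9 to 71378 CPM in KO members. S100a8 was highest at the lowest Krt79 share in the WT library, at 7330 CPM against 3152 CPM at 1% or more, and lay between 189 and 297 CPM in the KO library.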

How the data were processed

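Single cells of 2 libraries were measured, 1 WT and 1 KO, both imiquimod-treated. The files are the UMI count matrices that the authors deposited, unnormalized, 1 matrix per library; per the submitters' processing notes Cell Ranger 3.0.2 and Seurat 3.0 were used with mm10, and per the file headers the matrices came from software version 3.1.0. The columns of other samples numbered 0. Gene positions are those of the mm10 annotation, and promoter sequences those of RefSeq on GRCm38.p6; 4 of the genes looked up are shown.

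Cells were filtered and gated as described in the report. UMIs were summed per library over the members (144405448 and 122012073 UMIs in all quality-filtered cells of the libraries, median 6375 and 6779 per cell) and divided by the total to give CPM. Genes with at least 50 summed UMIs were compared, genes of lists with at least 20. Ratios have exact conditional 95% intervals, and a library at 0 was set at 3 counts. Doublets were not called with a dedicated tool; members with at least 3 UMIs of another lineage's markers, except those of Langerhans cells, whose list holds Epcam, were left out as an alternative. The free RNA mark read the library with the higher level; C2cd4b, Hspa1a, Id4, Il10 and Il34 were under its limit in the WT library alone, and Fabp5, Gsta4 and Il33 in the KO library alone. Genes were named by rule: 50 CPM or more in 1 of the libraries, then the first 12 in each direction by the interval bound nearest 1, the first 12 by lowest ratio over the 3 keratinocyte groups, and the extremes of each list. Mitochondrial, ribosomal protein, haemoglobin, receptor-segment and Y-linked genes, Xist and unnamed gene models (Gm numbers and Rik names) were not named. Exceptions that did not follow a list and members of a gene pair were added after their values were seen. The members and the 32 gene lists were chosen with earlier results of these data known. The ratio procedure was tested on simulated Poisson counts, the model that its intervals assume. Variation between cells or libraries was therefore not covered. Python 3.11.15, numpy 2.4.6, scipy 1.17.1, pandas 2.3.3 and matplotlib 3.10.9 were used.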

Additional observations from a re-analysis of the deposited data

Results flagged for a closer look

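Cd74, the invariant chain of MHC class II, differed in direction between cell groups. Its KO over WT ratio was 0.421 in the upper follicle members, with 47.8 (WT) and 20.1 CPM (KO), and 2.31 in the outer follicle cells. The difference between these ratios was not tested. Cd74 is marked as possible free RNA in the members, and without members that held at least 3 UMIs of another lineage's markers its ratio was 1.03.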

How the results depend on the processing

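No paired analysis was possible because each genotype has 1 library, and for the same reason no replicate could be left out. The 2 depth alternatives (at least 8000 and under 8000 UMIs) were chosen after seeing the data. The share of members in WT and KO cells was 7.86% and 8.52% with Krt79 at 0.2% or more, 11.9% and 10.3% with at least 3 Krt79 UMIs, 3.63% and 5.57% without members carrying other lineages' markers (422 and 535 members remained), and 9.66% and 10.1% over cells with at least 3000 UMIs. Over cells with at least 8000 UMIs it was 13.1% and 18.4%, and under 8000 UMIs 14.1% and 6.21%. Genes at least 2-fold higher and lower in the KO members numbered 319 and 300 without lineage-marker members, 94 and 218 after thinning to 1000 UMIs, 580 and 888 with a minimum of 20 UMIs, 216 and 263 with a minimum of 200, and 286 and 236 without possible free RNA, 216 and 129 without genes under the free RNA limit in either library (chosen after seeing the data), 270 and 206 under 8000 UMIs, and 448 and 768 as a mean over cells. On the median-ratio scale, whose log2 shift was -0.02, 402 genes were higher and 574 lower.

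Of the named and listed genes past 2-fold, 142 of 159 stayed so in members with at least 8000 UMIs, 77 of 124 under 8000 UMIs, 91 of 121 after thinning and 145 of 166 with the keratin ranges weighted equally. The ratio crossed 1 under 8000 UMIs for Apod (1.99), Cdk1 (1.28), Csf2 (1.39), Csta1 (0.646), Gja1 (1.09), Gstm2 (0.612), Ifi27l2a (0.987), Lor (0.942), Plin2 (1.28) and Tyms (1.01). After thinning it did so for Apod (1.02) and Dll1 (0.977). Ccl22 crossed 1 with Krt79 at 0.2% or more (1.17) and at 8000 UMIs or more (2.89), Cd74 without lineage-marker members (1.03), and Gsta3 (1.25) and Pglyrp1 (1.77) as a mean over cells. The causes were not tested. Shallow members hold few UMIs, so genes of low level were not measurable in them.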

Other observations

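Some ratios between the libraries were of another size in the members than in the other keratinocytes. Klk6 was 0.598 times as high in KO as in WT members, whereas the KO over WT ratio of Klk6 was 0.164 in suprabasal and 0.109 in outer follicle cells. Gata6 had a ratio of 1.75 in the members, 1.15 in suprabasal cells and 0.988 in outer follicle cells. Krt77 had a ratio of 4.74 in the members and 2.62 in suprabasal cells, where its level was 1.41 and 3.71 CPM. These differences between groups were not tested.

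Krt15, a keratin of basal and bulge cells, was highest in members with the lowest Krt1 and Krt10 fraction. Over the 3 ranges Krt15 had 29.9, 11.7 and 4.45 CPM in the WT and 134, 31.4 and 12.1 CPM in the KO members. It is marked as possible free RNA in the members.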
